A study of Homo sapiens with 6 samples.

Results

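The phagocyte NADPH oxidase was followed through 6 of its genes in MV4-11, an acute myeloid leukaemia (AML) cell line that carries an internal tandem duplication of *FLT3*. These genes are *CYBB*, *CYBA*, *NCF1*, *NCF4*, *RAC1* and *RAC2*. They were taken as the rows of the count table whose Ensembl identifier carries one of these 6 symbols, out of 61806 rows, and all 6 were among the 19149 genes with enough reads to be tested. Bulk RNA sequencing was available for 3 libraries labelled shNC (a control short hairpin RNA) and 3 labelled shATGL (a hairpin against *ATGL*, the triglyceride lipase gene listed as *PNPLA2*). The labels name no drug. The study delivered its hairpins against *ATGL* with lentiviral vectors, and its text does not state how the control hairpin was delivered. The study names more than 1 hairpin against *ATGL*, although the sequences it lists for them are reverse complements of each other. The labels do not say which hairpin a library carries, nor whether the libraries of a group came from separate cultures. The p-values below therefore measure only the spread between these libraries.

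The oxidase carries electrons from NADPH across a membrane to oxygen, which makes superoxide. In resting cells, a membrane flavocytochrome built from gp91phox (*CYBB*, also called NOX2) and p22phox (*CYBA*) is kept apart from the cytosolic subunits, which include p47phox (*NCF1*) and p40phox (*NCF4*). On stimulation p47phox is phosphorylated, the cytosolic subunits move to the membrane, and a GTP-bound Rac (*RAC1* or *RAC2*) completes the active enzyme. Neutrophils and monocytes use it in the respiratory burst that kills microbes, and inherited loss of *CYBB*, *CYBA*, *NCF1* or *NCF4* causes chronic granulomatous disease.

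The libraries held between 59674064 and 74808280 counted reads, and mitochondrial genes took 6.34% to 8.17% of them. The level of the targeted gene, as CPM (read counts scaled to a fixed library size of 1000000), was 101, 97.0 and 107 in shNC and 102, 98.1 and 104 in shATGL. Its log2 fold change was -0.01 (adjusted p = 0.979, edgeR), so no fall of the *PNPLA2* transcript was seen under its own label. For this reason every direction given here is a direction between labels. The study itself reported the knockdown in MV4-11 cells by western blot, a measure of protein, and also measured *ATGL* RNA after knockdown. The library labelled shATGL 3 stood apart, with a chi-square per degree of freedom of 84.0 and 87.6 against the other 2 of its group, where all other pairs of a group gave 11.3 to 26.2, so results are also given without it. Of 7 myeloid markers, 6 had reads in every library, and their summed level ran from 1470 to 1560 CPM in shNC and from 1370 to 1470 CPM in shATGL. Within that list *LYZ*, the lysozyme gene, was at 805 to 889 CPM in shNC and 715 to 777 CPM in shATGL. The integrin gene *ITGAM* went the other way, at 85.9 to 89.5 and 89.8 to 97.2 CPM, also without overlap, and *CSF1R*, *FLT3*, *CD33* and *SPI1* overlapped between groups, while the monocyte antigen *CD14* had 0 to 18 reads in any library. Markers of T cells (3), erythroid (3), stromal (2) and epithelial cells (2) summed to at most 0.252 CPM, with *CD3D*, *HBB*, *COL1A2* and *EPCAM* at 0 reads, and of the B cell markers *CD79A* lay between 0.991 and 2.79 CPM with *MS4A1* at 0. In bulk RNA, fewer cells of a type and less RNA per cell cannot be told apart.

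*NCF1* is the subunit whose reads are hardest to place, because the human genome holds 2 near copies of it, *NCF1B* and *NCF1C*, both on chromosome 7. The copies are known to lack a GT at the start of exon 2, which shifts the reading frame. The 2 stretches below are the start of that exon in the direction of transcription, from GRCh38, at chr7:74777267-74777294 on the plus strand for *NCF1* and at chr7:75168685-75168710 on the minus strand for *NCF1C*. They are shown because only reads over such a difference can be assigned to 1 gene, and the capitals mark the GT repeat.
NCF1: GTGTacatgttcctggtgaaatggcagg
NCF1C: GTacatgttcctggtgaaatggcagg
Over the aligned transcript *NCF1* and *NCF1C* were 99.4% identical, with 8 mismatches in 1394 bases, and *NCF1* and *NCF1B* were 99.0% identical, with 12 mismatches in 1167 bases. Of the 1247 stretches of 150 bases in *NCF1* transcripts, 566 (45.4%) also occur in a transcript of another gene. For *RAC1* this was 206 of 2174 (9.48%), shared with the pseudogene *RAC1P2*, and for the other 4 subunit genes it was 0. The values of *NCF1*, and to a lesser degree *RAC1*, therefore depend on how shared reads were counted, which is not given in the sources used here.

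The transcripts of the 6 subunits differed widely in level. Levels of different genes are compared as CPM per kilobase of exon, and by this measure *CYBA* was highest in shNC at 178 ± 15 (SD, n = 3), followed by *RAC2* at 171 ± 6.39. *RAC1*, the Rac found in most cell types, was at 96.6 ± 4.58 CPM per kilobase, and *NCF4* was at 66.0 ± 4.25. *NCF1* was far below these at 7.00 ± 0.214 and *CYBB*, the catalytic subunit, was lowest at 0.768 ± 0.138 CPM per kilobase. The order was identical in shATGL, with *CYBA* at 158 ± 12.4, *RAC2* at 156 ± 10.3, *RAC1* at 86.8 ± 6.60, *NCF4* at 58.3 ± 2.45, *NCF1* at 6.87 ± 0.181 and *CYBB* at 1.11 ± 0.0871 CPM per kilobase. Over the 6 libraries the ranges of *CYBA* (150 to 195) and *RAC2* (149 to 179) overlapped, so that these neighbours did not differ beyond their spread, and all other neighbours in the order were separated. When the longest transcript was used as the length instead, *CYBA* (357 to 462) and *RAC2* (254 to 305) were separated too, and the order was the same. Averaged over all libraries, *CYBB* lay at the 36.0th percentile of 18566 tested genes with a known length, *NCF1* at the 69.4th, *NCF4* at the 96.4th, *RAC1* at the 97.7th, and *CYBA* and *RAC2* at the 98.9th. *CYBA* exceeded *CYBB* by 179 times per kilobase, *RAC2* by 175 times, *RAC1* by 97.7 times, *NCF4* by 66.2 times and *NCF1* by 7.39 times. With the longest transcript as length these values were 414, 290, 128, 69.3 and 10.6 times. The partners of the membrane flavocytochrome thus stood at opposite ends of the order.

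**Figure D1:**
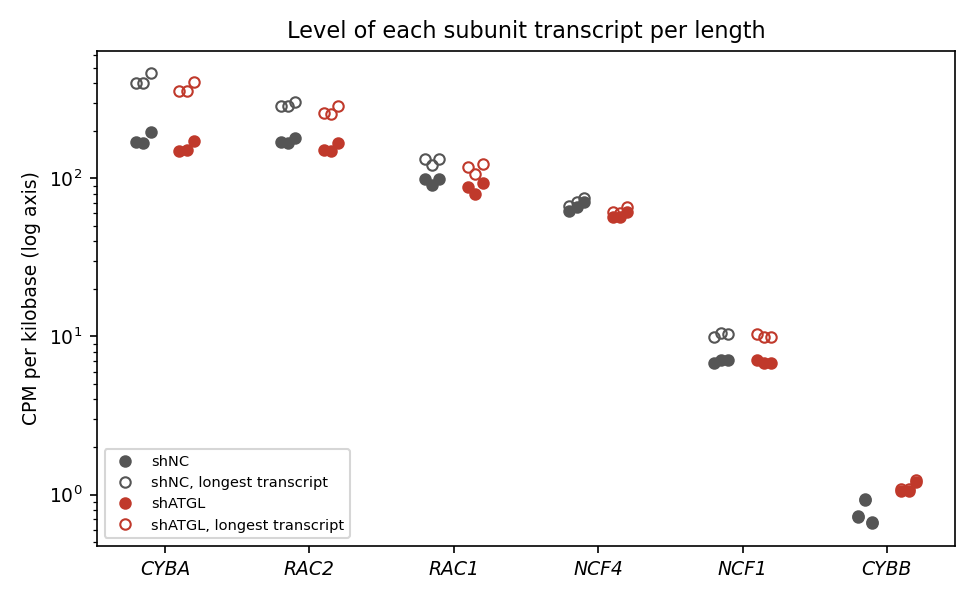
Level of each subunit gene as CPM per kilobase on a log axis, 1 point per library, with shNC in grey and shATGL in red. Filled points use all exons of the gene as its length and open points the longest transcript. *CYBB* lies between 0.66 and 1.21 with all exons, below every other subunit.

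The membrane subunits were considered first. *CYBB* (ENSG00000165168) lies at chrX:37780011-37813461 on the plus strand (GRCh38 with GENCODE 29, as for the other genes). Its level was 3.19, 4.08 and 2.92 CPM in shNC, from 231, 243 and 207 reads, and 4.68, 4.70 and 5.36 CPM in shATGL, from 347, 360 and 322 reads. All 3 libraries labelled shATGL were above all 3 labelled shNC. The means were 3.40 ± 0.609 and 4.91 ± 0.385 CPM, a log2 fold change of 0.53 (SE 0.17, 95% interval 0.14 to 0.93), or 145% of the shNC level (110% to 190%). The difference had an unadjusted p of 0.0144 in edgeR's quasi-likelihood test and an adjusted p of 0.392 over all genes, so it did not pass the threshold. The exact two-sided permutation p was 0.1, the smallest that 3 libraries against 3 allow. Without shATGL 3 the log2 fold change was 0.47 (SE 0.19, adjusted p = 0.143, edgeR).

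*CYBA* (ENSG00000051523) encodes the stabilizing partner of gp91phox and lies at chr16:88643283-88651152 on the minus strand. It was at 569, 565 and 654 CPM in shNC and at 505, 508 and 578 CPM in shATGL. The groups overlapped, since shATGL 3 was above shNC 1 and shNC 2. The log2 fold change was -0.17 (SE 0.08, 95% interval -0.36 to 0.02), 89.0% of the shNC level, with an adjusted p of 0.464 in edgeR. Without shATGL 3 it was -0.24 (SE 0.07, adjusted p = 0.0586, edgeR), and without shNC 3 it was -0.10 (adjusted p = 0.848).

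*NCF1* (ENSG00000158517), the organizer that brings the cytosolic subunits to the membrane, lies at chr7:74773962-74789315 on the plus strand. It was at 23.4, 24.8 and 24.6 CPM in shNC and at 24.5, 23.4 and 23.4 CPM in shATGL, so the groups overlapped. The log2 fold change was -0.03 (SE 0.08, adjusted p = 0.909, edgeR), with a 95% interval of -0.21 to 0.15. *NCF1B* was at 12.3 to 15.1 CPM and *NCF1C* at 12.5 to 16.0 CPM over the 6 libraries. *NCF1* took 44.9% to 46.8% of the reads of the 3 copies in every library, and the log2 fold change of their sum was -0.05 (adjusted p = 0.785, edgeR).

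*NCF4* (ENSG00000100365), whose product binds the membrane lipid phosphatidylinositol 3-phosphate, lies at chr22:36860988-36878015 on the plus strand. It was at 109, 116 and 124 CPM in shNC and at 101, 99.5 and 107 CPM in shATGL. All 3 libraries labelled shATGL were below all 3 labelled shNC, although shATGL 3 and shNC 1 were close. The log2 fold change was -0.18 (SE 0.07, 95% interval -0.34 to -0.02), 88.3% of the shNC level, with an unadjusted p of 0.0342 and an adjusted p of 0.403 in edgeR. Without shATGL 3 it was -0.22 (SE 0.06, adjusted p = 0.0584, edgeR), and without shNC 3 it was -0.13 (adjusted p = 0.824, edgeR). The exact permutation p was 0.1, again the smallest possible. An antisense gene, *NCF4-AS1*, overlaps 27 bases of *NCF4* exon, and the strand setting of the counting is not given in the sources used here.

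The Rac genes encode small GTPases, of which *RAC2* is largely restricted to blood cells. *RAC1* (ENSG00000136238), at chr7:6374523-6403977 on the plus strand, was at 309, 284 and 309 CPM in shNC and at 273, 248 and 289 CPM in shATGL. *RAC2* (ENSG00000128340), at chr22:37225261-37244448 on the minus strand, was at 427, 422 and 452 CPM in shNC and at 382, 377 and 424 CPM in shATGL. In both genes the groups overlapped through shATGL 3, which was above shNC 2. The log2 fold change was -0.16 (SE 0.07, 95% interval -0.32 to 0.01, adjusted p = 0.449) for *RAC1* and -0.14 (SE 0.07, 95% interval -0.29 to 0.01, adjusted p = 0.453) for *RAC2* in edgeR. *RAC1* was at -0.21 without shATGL 3 (adjusted p = 0.0619, edgeR) and at -0.10 without shATGL 2 (adjusted p = 0.854). Without shATGL 3 *RAC2* was the 1 subunit gene with an adjusted p under 0.05, at a log2 fold change of -0.20 (SE 0.05, adjusted p = 0.0333, edgeR), in a fit in which 14.0% of all genes had such a p.

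**Figure D2:**
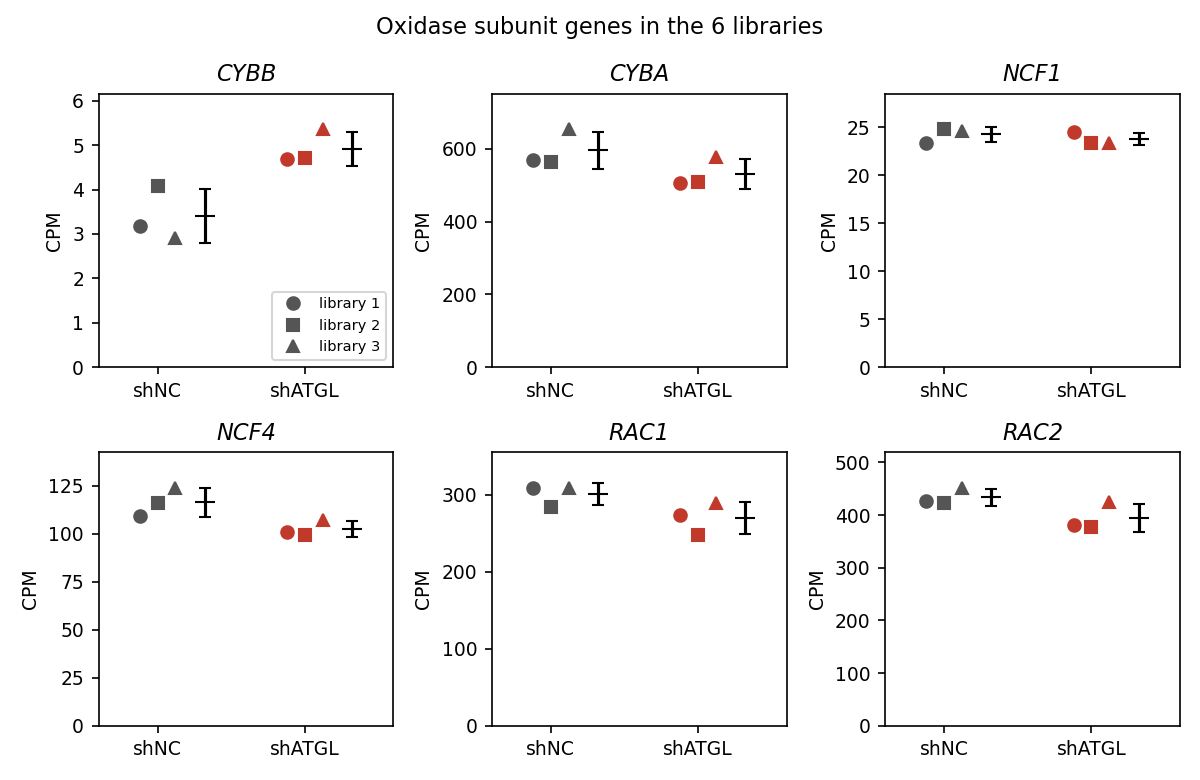
CPM of the 6 subunit genes by library, on linear axes that start at 0, with shNC in grey and shATGL in red. Circles, squares and triangles are libraries 1, 2 and 3 of a group, and the black bars give the mean and SD of each group. *CYBB* is higher in every shATGL library, *NCF4* is lower in every one, and the other 4 genes overlap between groups.

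Counted over the set, 0 of the 6 subunit genes passed an adjusted p under 0.05 with a fold of at least 2, where 1 of 19149 genes (0.00522%) did so. An adjusted p under 0.05 at any fold was reached by 0 of 6 with edgeR and with DESeq2, and by 1, *RAC2*, with limma's voom and sample quality weights, where 10.8% of all genes reached it. At an unadjusted p under 0.05, 1 of 6 was higher (*CYBB*) and 1 of 6 was lower (*NCF4*), against 5.77% and 5.94% of all genes tested. Leaving out 1 library moved this count of 2 to between 0 (without shNC 3) and 5 (without shATGL 3, all but *NCF1*). Over all genes the count was 2243 of 19149 with 6 libraries, 1113 of 19956 without shNC 3 and 5739 of 19954 without shATGL 3. *CYBB* and *NCF4* were also the 2 subunit genes whose groups did not overlap. This held for 7.93% of all genes upwards and 9.38% downwards (17.3% in all). The log2 fold change was below 0 in 5 of 6 subunit genes, against 48.1% of all genes, and its median was -0.15 against 0.01. *CYBB* was the exception.

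Transcript length and base composition moved with the fold change in these libraries, and the subunit genes differ in length. Over 13770 genes of at least 1 CPM, the log2 fold change rose with length (Spearman's rho 0.40 across genes, which are not independent replicates). The median log2 fold change was -0.13 for genes of 1308 to 1916 bases, the class of *CYBA*, *NCF4* and *RAC2*, and -0.08 for those of 1917 to 2394 bases, the class of *NCF1* and *RAC1*. It was 0.03 for genes of 4054 to 4718 bases, where *CYBB* falls. With the length and GC trend of genes of at least 1 CPM removed, the log2 fold change of *CYBB* was 0.45 (SE 0.19, unadjusted p = 0.0481, edgeR) and that of *NCF4* was -0.12 (unadjusted p = 0.0409). The values of *CYBA*, *NCF1*, *RAC1* and *RAC2* were then -0.11, -0.02, -0.13 and -0.07, and 12.5% of all genes had an unadjusted p under 0.05. With the trend fitted on all tested genes instead, *CYBB* was at 0.43 (unadjusted p = 0.0593) and *CYBA*, *NCF4* and *RAC2* were the 3 subunit genes under an unadjusted 0.05, against 14.7% of all genes in edgeR. No sign changed under either correction. The part of the length trend in the results was not tested further.

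**Figure D3:**
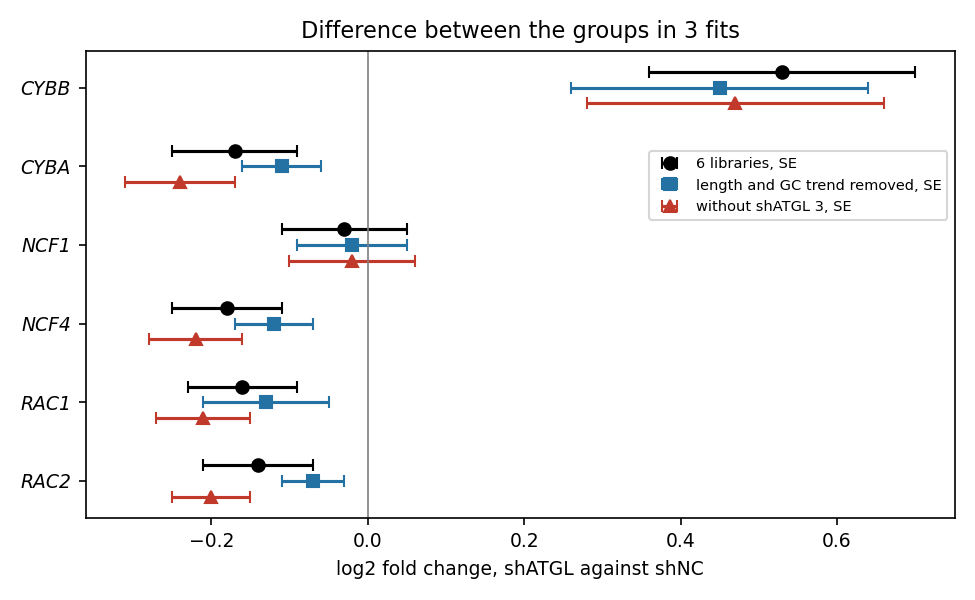
Log2 fold change of each subunit gene, shATGL against shNC, with its SE as a bar. Black circles use all 6 libraries, blue squares have the length and GC trend of genes of at least 1 CPM removed, and red triangles leave out shATGL 3. *CYBB* lies between 0.45 and 0.53 and the other 5 genes lie between -0.24 and -0.02.

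The balance between partners was then compared within each library, which does not depend on the library's scaling. The log2 ratio of *CYBB* to *CYBA* was -7.48, -7.11 and -7.81 in shNC and -6.75, -6.76 and -6.75 in shATGL. In reads, this is 178, 138 and 224 *CYBA* reads per *CYBB* read in shNC and 108 in each of the 3 libraries labelled shATGL. The groups did not overlap, and the difference of 0.71 on the log2 scale had an exact two-sided permutation p of 0.1 (0.15 adjusted over 3 ratios). The ratio was nearly the same in the 3 shATGL libraries, whereas it varied among those labelled shNC. *CYBB* had only 207 to 360 reads in any library, and the spread of the ratio within each group was not tested. After removal of the length and GC trend of genes of at least 1 CPM the difference was 0.55.

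The log2 ratio of *NCF1* to *NCF4*, the cytosolic pair, was -2.22, -2.22 and -2.33 in shNC and -2.04, -2.09 and -2.20 in shATGL. Here too the groups did not overlap, although shATGL 3 was close to shNC 1 and shNC 2. The difference was 0.15 (exact permutation p = 0.1, adjusted 0.15), and 0.10 after removal of the same trend, with an exact permutation p of 0.2. The log2 ratio of *RAC2* to *RAC1* was 0.47, 0.57 and 0.55 in shNC and 0.48, 0.60 and 0.55 in shATGL, a difference of 0.02 (exact permutation p = 0.7, adjusted 0.7). *RAC2* had 1.38 to 1.52 reads per *RAC1* read in every library, and the groups overlapped.

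**Figure D4:**
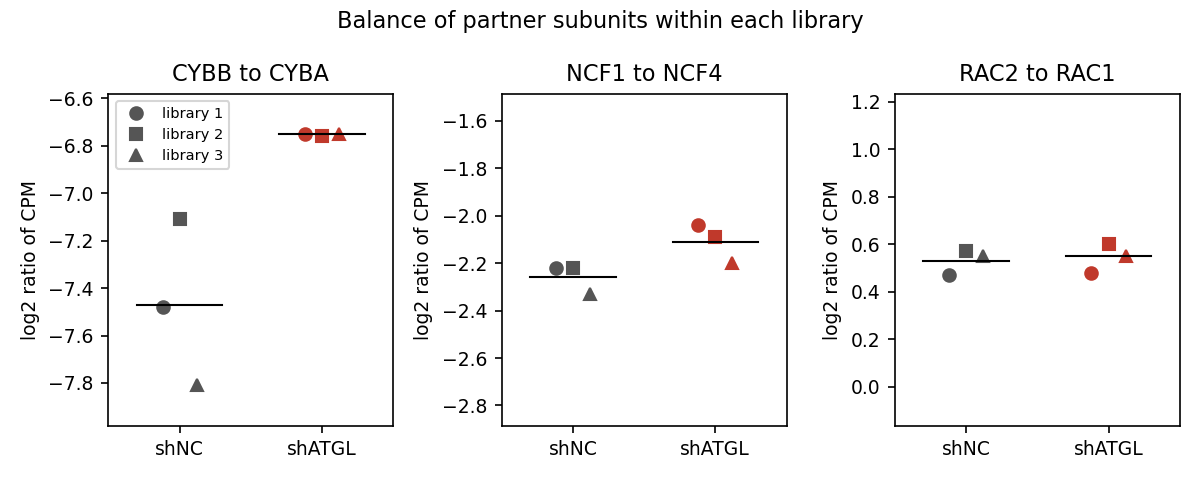
Log2 ratio of CPM between partner subunits in each library, with axes of equal span, shNC in grey and shATGL in red, and the group mean as a line. Circles, squares and triangles are libraries 1, 2 and 3. The ratio of *CYBB* to *CYBA* is higher in every shATGL library by 0.71 on average, that of *NCF1* to *NCF4* by 0.15, and that of *RAC2* to *RAC1* overlaps.

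The other genes of the pathway were read as 5 lists with 73 genes, of which 63 were tested. In the 6 libraries 0 of 63 had an adjusted p under 0.05 by edgeR (0 by DESeq2 and 10 by voom with quality weights), and 10 had an unadjusted p under 0.05, against 11.7% of all genes tested. All 10 were lower in shATGL, where 5.94% of all genes were. Leaving out 1 library moved this count of 10 to 3 without shATGL 1, shATGL 2 or shNC 3. It was 8 without shNC 1, 10 without shNC 2 and 25 without shATGL 3. The count over all genes also moved, from 2243 of 19149 with 6 libraries to 5739 of 19954 without shATGL 3. It was 1052 of 19821 without shATGL 1, 1021 of 19742 without shATGL 2 and 1113 of 19956 without shNC 3. Without shNC 1 it was 1516 of 19927 and without shNC 2 it was 1851 of 19966. Among 23 genes of assembly and activation (all tested) 7 were above 0 and 16 below, with a median log2 fold change of -0.04. Of these, 2 had an unadjusted p under 0.05. *ARHGDIB*, whose product holds Rac proteins in the cytosol, was at 834 ± 41.9 CPM in shNC and 724 ± 42.7 CPM in shATGL (log2 fold change -0.20, adjusted p = 0.392, edgeR). *S100A9*, a calcium-binding protein that assists the oxidase, was at 20.1 ± 1.91 and 14.6 ± 2.76 CPM (log2 fold change -0.46, adjusted p = 0.392, edgeR). For *CYBC1*, which encodes the chaperone of the gp91phox and p22phox pair and was singled out after its values were seen, the log2 fold change was 0.05 (adjusted p = 0.725, edgeR).

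Of 11 other NADPH oxidases and their partners, only 4 had enough reads for a test, and 0 of these had an unadjusted p under 0.05. *NOX3*, *NOX4*, *DUOXA1* and *DUOXA2* had 0 reads in every library, *NOX5* and *DUOX2* had at most 4 and *NOXO1* had 3 to 11. The 4 tested genes had a median of -0.12, with 1 above 0 and 3 below. Levels too low for the depth of these libraries cannot be seen where the count is 0.

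Of 16 receptors and adaptors that trigger the burst, 14 were tested, with 6 above 0, 8 below and a median of -0.04. The 3 with an unadjusted p under 0.05 were lower in shATGL, against 5.94% of all genes in that direction. *TYROBP*, an adaptor with an activation motif, was at 94.7 ± 8.52 CPM in shNC and 76.7 ± 8.59 CPM in shATGL (log2 fold change -0.31, adjusted p = 0.392, edgeR). *FCER1G*, the common Fc receptor gamma chain, was at 39.2 ± 3.31 and 34.0 ± 0.861 CPM (log2 fold change -0.21, adjusted p = 0.411, edgeR). *FCGR2A*, an IgG receptor, was at 63.2 ± 1.53 and 57.2 ± 1.55 CPM (log2 fold change -0.14, adjusted p = 0.426, edgeR). The groups did not overlap in these 3 genes downwards and in 1, *ITGAM*, upwards, against 9.38% and 7.93% of all genes tested. *ITGAM* was at 87.8 ± 1.79 CPM in shNC and 94.1 ± 3.85 CPM in shATGL. *FCGR3A* had 0 reads and *CLEC7A* at most 16. Of 13 transcription factors that act on the oxidase genes, all tested, 3 were above 0 and 10 below, with a median of -0.06. *CEBPA*, a myeloid differentiation factor, was the 1 factor with an unadjusted p under 0.05, at 626 ± 33.5 and 547 ± 41.7 CPM (log2 fold change -0.19, adjusted p = 0.399, edgeR). *SPI1*, which encodes PU.1, a known activator of *CYBB*, was at 302 to 318 CPM in shNC and 288 to 307 CPM in shATGL, and the groups overlapped.

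Enzymes that take up superoxide and peroxide were read last. Of 10 genes, 9 were tested, with 1 above 0 and 8 below, and the median log2 fold change was -0.17 against 0.01 over all genes. With the length and GC trend fitted on all tested genes removed, these medians were -0.22 and -0.06. That correction left part of the length trend. Among genes of at least 1 CPM, the shortest class, of 59 to 1306 bases, had a median of -0.17 before any correction. Where the genes of this list fall by length was not tested. The groups did not overlap in 6 genes downwards and 1 upwards, against 9.38% and 7.93% of all genes tested. An unadjusted p under 0.05 was found for 4 genes, all lower in shATGL, against 5.94% of all genes in that direction. *TXN*, which encodes thioredoxin, was at 174 ± 13.7 CPM in shNC and 142 ± 5.97 CPM in shATGL (log2 fold change -0.29, adjusted p = 0.392, edgeR). *SOD1*, the cytosolic superoxide dismutase, was at 154 ± 9.97 and 129 ± 5.47 CPM (log2 fold change -0.26, adjusted p = 0.392, edgeR). The peroxidase genes *PRDX1* and *GPX1* were at 426 ± 25.9 and 1030 ± 98.7 CPM in shNC and at 360 ± 20.8 and 834 ± 86.6 CPM in shATGL (log2 fold changes -0.24 and -0.30, adjusted p = 0.392 for both, edgeR). The smallest adjusted p of any list gene was 0.392 in edgeR. Without shATGL 3 the count of list genes with an adjusted p under 0.05 was 10 of 63, against 14.0% of all genes in that fit. All 10 were lower in shATGL, and 2 of them, *CAT* and *PRDX6*, were not among the 10 named above.

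Because *CYBB* stood apart from its partners, its profile over the 6 libraries was compared with that of 9295 genes of at least 10 CPM, a level that *CYBB* itself did not reach. Likeness was measured as the root mean square distance between log2 CPM profiles centred on each gene's mean. The nearest were *PKD1P3* at 0.138, *MYH10* at 0.14, *UNKL* at 0.144, *NBPF20* at 0.148 and *LMO7* at 0.149. *PKD1P3* and *NBPF20* belong to families of near-identical copies, so their counts are uncertain. The other subunits were at 0.326 (*NCF1*), 0.382 (*RAC2*), 0.398 (*RAC1*), 0.4 (*NCF4*) and 0.409 (*CYBA*), where the median of all genes was 0.352. Thus 4 of the 5 were farther from *CYBB* than the median gene. These distances use the same 6 libraries as the fold changes above, so they restate the opposite signs and are no separate evidence. The distances are descriptive, and the 5 names rest on the level required, since 0 of them were among the 5 nearest of 13904 genes of at least 1 CPM.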

How the data were processed

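RNA sequencing of MV4-11 cells was analysed in 3 shNC and 3 shATGL libraries, grouped by their labels. The authors trimmed reads with FASTP, and the deposited values are raw read counts per Ensembl gene, without normalization. The submitters' processing notes name the build mm10, although the identifiers are human. The aligner, counting tool, strand setting and annotation are not given in the sources used here. Of 61806 identifiers 58254 had a position in GENCODE 29 (GRCh38), used for positions, exon lengths, GC content and sequences.

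Counts were filtered with filterByExpr, scaled by TMM and compared with edgeR 4.0.16 (R 4.3.3, quasi-likelihood test, no block), with Benjamini-Hochberg adjustment over 19149 genes. A call required an adjusted p under 0.05 and a fold of at least 2. CPM used TMM-scaled library sizes. Ratios were compared by exact two-sided permutation of 20 relabellings. Alternatives used limma 3.58.1 (voom) and DESeq2 1.42.0, other scalings and filters, a replicate block, a length and GC correction and the removal of each library. The length and GC trend of genes of at least 1 CPM was added after seeing the data. Totals of 59674064 to 74808280 reads limit counting error for genes with many reads, but less so for *CYBB*, with 207 to 360 reads. Intervals cover the spread between libraries.

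The subunits and gene lists were chosen with earlier results of these data known. Genes named were the subunits, *PNPLA2*, the *NCF1* copies, up to 4 genes a list with the smallest unadjusted p under 0.05, cell type markers and the 5 profiles nearest to *CYBB* among genes of at least 10 CPM. *CYBC1*, *CAT*, *PRDX6* and list genes with few or 0 reads are named outside this rule, after their values were seen. One cell type marker is not reported here.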

Additional observations from a re-analysis of the deposited data

How the results depend on the processing

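The number of genes called over all genes was 1, and it was 24 with DESeq2 (19 higher), 266 with voom and sample quality weights (241 higher), 3 with upper-quartile scaling and 0 to 319 when 1 library was left out, the highest without shATGL 3. Of the subunits, 0 were called under any alternative. The log2 fold change of *CYBB* stayed between 0.42 and 0.71 over 16 alternatives (adjusted p 0.0679 to 0.837), and those of *CYBA*, *NCF4* and *RAC1* stayed below 0 with adjusted p over 0.05. *RAC2* passed an adjusted p of 0.05 with voom (-0.17, adjusted p = 0.0404) and without shATGL 3, and leaving out 1 library moved it between -0.196 and -0.106. The sign turned without shNC 2 for *NCF1* (range when 1 library was left out -0.053 to 0.011), without shATGL 2 (0.018) and without shNC 3 (0.033) for *PNPLA2* (lowest -0.024), and without shNC 1 (-0.012) and shATGL 2 (-0.01) for the ratio of *RAC2* to *RAC1* (highest 0.049). With voom 10 list genes had an adjusted p under 0.05, the same 10 as without shATGL 3, against 10.8% of all genes. Sample quality weights give less weight to libraries that vary more, so these 2 fits are not independent of each other. With the longest transcript as length, the mean levels were 398 (*CYBA*), 279 (*RAC2*), 123 (*RAC1*), 66.6 (*NCF4*) and 10.2 (*NCF1*) CPM per kilobase, and with a floor of 1 CPM the smallest profile distance to *CYBB* was 0.0563. The planned length and GC correction left a trend with length (Spearman's rho 0.19, and 0.03 with that of genes of at least 1 CPM). The causes were not tested.

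The replicate numbers were not treated as pairs in the main fit. The deviations of libraries with the same number correlated at 0.06, 0.23 and 0.34, and those with different numbers at -0.291 to 0.192. These values do not settle whether the numbers mark pairs. With the replicate block 0 genes were called, and 3 with the block and the length and GC correction. The block gave *CYBB* an adjusted p of 0.221 and the other subunits 0.119 to 0.895. At an unadjusted p under 0.05 in edgeR the block had 5 subunit genes, all but *NCF1*, where 3317 of 19149 genes had such a p.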
